A study of Danio rerio with 3 samples.

Results

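The genes described here are the VEGF receptor genes kdrl, kdr, flt1 and flt4 and the neuropilin genes nrp1a, nrp1b, nrp2a and nrp2b of the zebrafish. They were taken by name as 8 rows of the 25839 in the count tables of 3 plates, and all 8 had UMIs in every plate. The plates are repeats of 1 group, fli1a:dsRed positive cells of the anal fin of immature fish at the stage labelled II-III, with 80 fins dissected for each plate. The transgene places dsRed under control of fli1a, a transcription factor gene active in endothelium, and all wells carry it. Single cells were sorted into plates of 384 wells and their RNA was counted by MARS-seq, a 3' method that tags each captured transcript with the barcode of its well and a random molecular identifier (UMI). The series' title concerns blood vessels that form from lymphatic endothelium, so the comparisons made here are between classes of wells within the plates. No mutant or treated group was analysed here.

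VEGF receptors are tyrosine kinases that carry signals for endothelial growth, migration and survival. In zebrafish, Kdrl and Kdr are VEGFR2-type receptors that relay Vegfa signals in blood endothelium, Flt1 binds Vegfa and limits its supply, and Flt4 (VEGFR3) relays Vegfc signals in lymphatic and venous endothelium. Neuropilins are co-receptors for VEGF ligands and for class 3 semaphorins, and mouse NRP2 works with VEGFR3 in lymphatic endothelium. The 3' counts do not separate isoforms, so soluble and membrane flt1 transcripts were counted together. How reads that match both kdr and kdrl, or both copies of a neuropilin gene, were assigned was not given in the sources used here, and differences between these paralogues are uncertain to that extent.

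The authors listed 1036 of 1152 wells as analysed, 384, 384 and 268 in plates 1, 2 and 3, with median depths of 1064.5, 914.5 and 382 UMIs per well. Plate 3 was the shallowest, and all 384 well barcodes are shared by the 3 plates. The labels give no word on whether each plate had its own fish, so the plates taken as repeats below may be technical repeats. The edgeR p-values rest on a spread that the fit pools over many genes. They do not measure each gene's own spread over the 3 plates alone. Of 10 genes fixed as markers of endothelium in general, among them cdh5 and pecam1, 9 were detected in the 2 main classes of wells and etv2 was at 0. Over all analysed wells, 787 held at least 1 UMI of these markers, whereas 249, with a median depth of 172 UMIs, had none.

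The 8 genes held 2176 UMIs, or 0.184% of all UMIs of the analysed wells, and 671 wells (64.8%) had at least 1. Flt4 and kdrl had the most UMIs of the 8 genes and nrp1b the fewest. Levels are given as CPM, the UMIs of a gene per 1000000 UMIs of the same wells. Because each transcript is counted once at its 3' end, this level does not grow with transcript length. Orders between genes still depend on how 3' ends were annotated and reads assigned, which was not given in the sources used here.

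Among the receptors, flt4 was counted at 495, 565 and 692 CPM in plates 1, 2 and 3, and kdrl at 395, 530 and 658 CPM. Kdr stood at 234, 270.1 and 263 CPM, and flt1 at 48.3, 62.3 and 76.2 CPM. Flt4 and kdrl thus overlapped over the plates, kdr lay below both in each plate, and flt1 lay below kdr in each plate. Among the neuropilins, nrp2a was counted at 290, 216 and 180.0 CPM and nrp2b at 134, 120 and 215 CPM. Nrp1a stood at 57.2, 68.6 and 62.3 CPM and nrp1b at 44.7, 51.9 and 62.3 CPM. The nrp2 genes were above the nrp1 genes in each plate, the ranges of nrp2a and nrp2b overlapped, and so did those of nrp1a, nrp1b and flt1. In means over the plates, flt4 came first at 584 ± 100.1 CPM, before kdrl at 528 ± 131, kdr at 256 ± 19.1 and nrp2a at 229 ± 55.8 (SD, n = 3). There followed nrp2b at 156 ± 50.9, nrp1a at 62.7 ± 5.69, flt1 at 62.2 ± 14.0 and nrp1b at 53.0 ± 8.87 CPM. Plate 3 rests on few wells for the rare genes, since all 9 of its nrp1b UMIs came from 5 wells.

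In single wells the genes were sparse. A kdrl UMI was found in 335 wells and a flt4 UMI in 307, with at most 9 UMIs of either gene in 1 well. Kdr was detected in 205 wells, nrp2a in 188, nrp2b in 131, nrp1a in 61, flt1 in 47 and nrp1b in 45. Between 52.1% (flt4) and 86.9% (nrp1a) of the wells that held a gene held a single UMI of it. The 365 wells with none of the 8 genes had a median depth of 306 UMIs, against 1169 UMIs in wells with at least 1, so absence from a well went with low depth. Wells without any endothelial marker UMI had kdrl at 496 CPM and flt4 at 524 CPM, pooled over plates, against 481 and 549 CPM in wells with such a UMI. Detection there was 11.2% of wells for kdrl and 12.4% for flt4, against 39.0% and 35.1% at the median depth of 1064 UMIs. No class of wells in these plates is known to lack these genes, so the share of wells that free RNA alone would mark was not measured.

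Wells were then split by 2 genes outside the family. Aqp8a.1-high wells held at least 5 UMIs of aqp8a.1, a water channel gene, and no lyve1a UMI. Lyve1a-positive wells held at least 1 UMI of lyve1a, a hyaluronan receptor gene of lymphatic endothelium, and fewer than 5 of aqp8a.1. The classes counted 174 wells (76, 77 and 21 by plate) and 232 wells (108, 88 and 36). A further 103 wells met both conditions and 527 met neither. Median depths in plates 1, 2 and 3 were 1360.5, 1253 and 808 UMIs in aqp8a.1-high wells and 1374.5, 1207 and 675 UMIs in lyve1a-positive wells.

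Kdrl was higher, and flt4 and nrp2a were lower, in aqp8a.1-high wells than in lyve1a-positive wells, each by a little over 2-fold. Kdr and nrp2b did not pass the test in either direction. Flt1, nrp1a and nrp1b had too few UMIs for the expression filter and were not tested. Sums of UMIs for each class of a plate were tested across 1505 genes with edgeR's quasi-likelihood test, plate as a block, and Benjamini-Hochberg adjustment over all genes tested. The test called 3 of the 5 members it covered, 1 higher and 2 lower, beside 9.37% of all genes tested (5.58% higher and 3.79% lower). Of these, nrp2a met the filter only through lyve1a-positive wells, where it is high, so its call carries that limit. Plates of the 2 classes did not overlap for 5 of the 8 members, against 15.3% of 3466 genes with at least 20 UMIs.

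**Figure D1:**
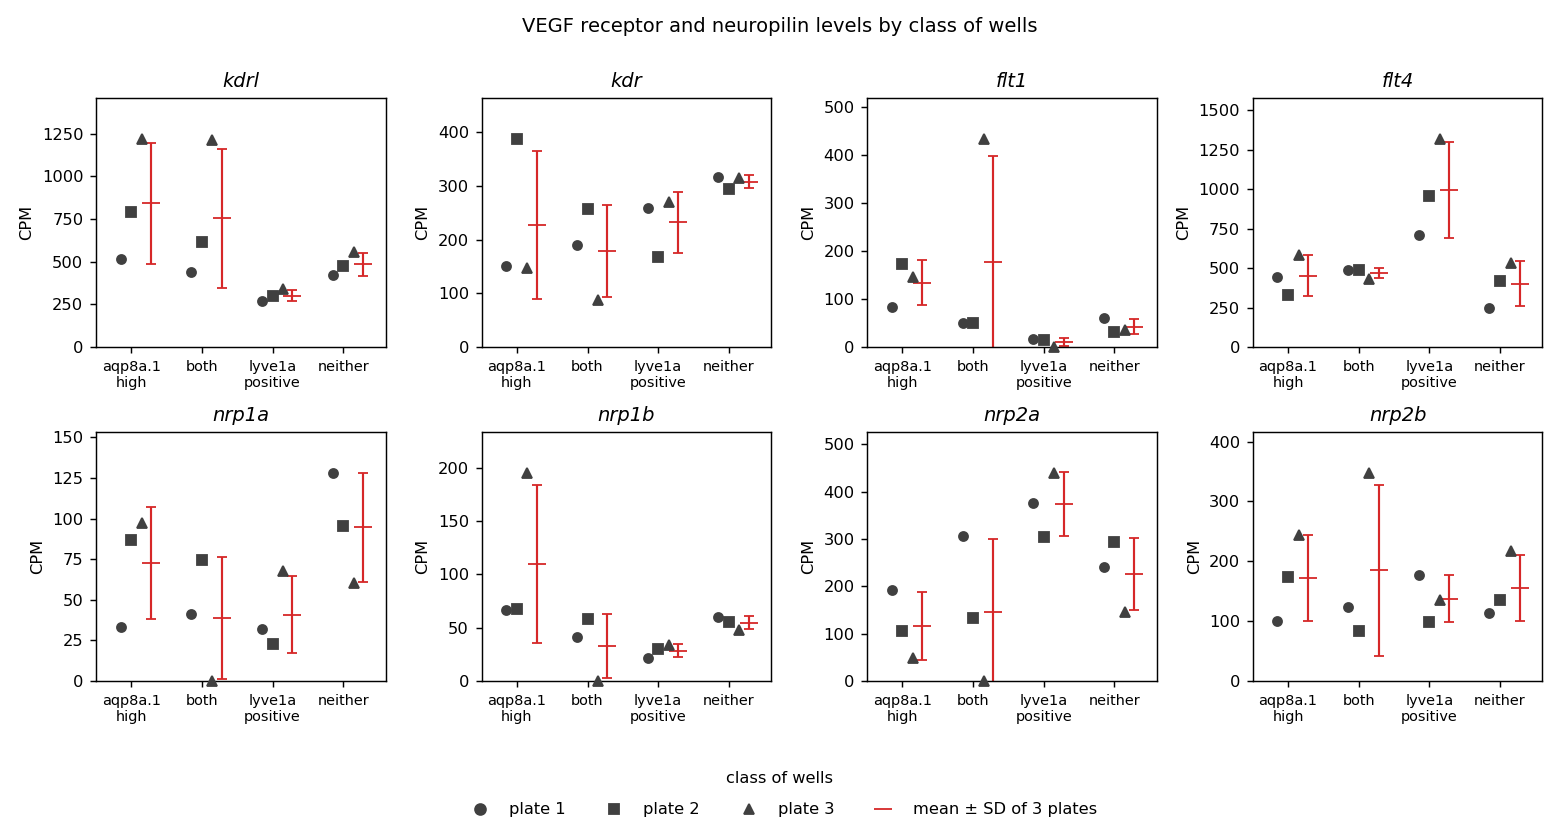
Level of each of the 8 genes in CPM (vertical axis, linear, starting at 0 and scaled per gene) in aqp8a.1-high wells, wells that meet both conditions, lyve1a-positive wells and wells that meet neither. Grey symbols are the 3 plates and red bars the mean ± SD; for kdrl all 3 aqp8a.1-high values (517 to 1218 CPM) lie above all 3 lyve1a-positive values (269 to 338 CPM), and for flt4 the order is the opposite.

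Kdrl, the main Vegfa receptor gene of zebrafish blood endothelium, was counted at 517, 793 and 1218 CPM in aqp8a.1-high wells of plates 1, 2 and 3, against 269, 297 and 338 CPM in lyve1a-positive wells. The lowest aqp8a.1-high plate thus stood above the highest lyve1a-positive plate. The fitted difference was 1.35 ± 0.25 on the log2 scale (SE), or 2.55-fold, with an adjusted p of 5.5e-06. It was called in all 18 alternative settings, at 1.15 to 1.92 on the log2 scale.

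Flt4, the Vegfc receptor gene, had the opposite order. It stood at 442, 329 and 585 CPM in aqp8a.1-high wells, against 711, 959 and 1317 CPM in lyve1a-positive wells, and the classes did not overlap. The log2 difference was -1.04 ± 0.23 (SE), 2.06-fold higher in lyve1a-positive wells, with an adjusted p of 0.0002. Without plate 2 the difference was -0.81 and no longer passed, with an adjusted p of 0.196. Flt4 was not confined to lyve1a-positive wells, since a UMI was found in a mean of 28.7% of the aqp8a.1-high wells of a plate (range 27.3% to 30.3%), against 54.1% ± 3.63 of lyve1a-positive wells (SD, n = 3 plates).

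Kdr, the other VEGFR2-type gene, did not follow kdrl between these classes. It was counted at 150.1, 387 and 146 CPM in aqp8a.1-high wells and at 259, 167 and 270.1 CPM in lyve1a-positive wells, so the plates overlapped and plate 2 ran against plates 1 and 3. The log2 difference was 0.16 ± 0.33 (SE), with an adjusted p of 0.868, which does not show that the classes are alike. Without plate 2 it was -0.76.

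Flt1, the Vegfa trap gene, had 10, 18 and 3 UMIs in aqp8a.1-high wells and 3, 2 and 0 UMIs in lyve1a-positive wells. These are levels of 83.4, 174 and 146 CPM in aqp8a.1-high wells and 16.2, 15.2 and 0 CPM in lyve1a-positive wells, and the classes did not overlap. The count of 0 in plate 3 allows up to 3 UMIs, or 101 CPM, which is above the 83.4 CPM of aqp8a.1-high wells in plate 1. In total 31 UMIs stood against 5, although lyve1a-positive wells held more UMIs of all genes (346686 against 243872 in aqp8a.1-high wells). With no expression filter, flt1 was tested among 13729 genes, of which 0.59% were called, and differed by 3.03 on the log2 scale (adjusted p 0.0040).

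Among the neuropilin genes, nrp2a passed the test and nrp2b did not. Nrp2a stood at 192, 106 and 48.7 CPM in aqp8a.1-high wells, against 377, 304 and 439 CPM in lyve1a-positive wells. All 3 aqp8a.1-high values lay below all 3 lyve1a-positive values, with a log2 difference of -1.28 ± 0.34 (SE), 2.43-fold higher in lyve1a-positive wells, and an adjusted p of 0.0035. The plate 3 value of 48.7 CPM rests on 1 UMI, and without plate 2 the adjusted p was 0.148. Nrp2a met the expression filter only through lyve1a-positive wells, so a high level there was a condition of being tested. With no expression filter it was tested among 13729 genes, of which 0.59% were called, and differed by -1.33 (adjusted p 0.041). Nrp2b was counted at 100.1, 174 and 244 CPM in aqp8a.1-high wells and at 178, 98.9 and 135 CPM in lyve1a-positive wells. These plates overlapped, and the log2 difference of 0.12 ± 0.40 (SE) had an adjusted p of 0.925.

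Nrp1b had 19 UMIs in aqp8a.1-high wells and 9 in lyve1a-positive wells, at 66.7, 67.7 and 195 CPM against 21.5, 30.4 and 33.8 CPM. The classes did not overlap, but the gene did not meet the expression filter, and neither did nrp1a with 15 and 11 UMIs. With no expression filter neither gene passed, with log2 differences of 1.55 for nrp1b (adjusted p 0.881) and 0.89 for nrp1a (adjusted p 0.986). Nrp1a stood at 33.4, 87.0 and 97.5 CPM in aqp8a.1-high wells and at 32.3, 22.8 and 67.5 CPM in lyve1a-positive wells, which overlap.

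The 527 wells that met neither condition and the 103 that met both add 2 more levels for each gene. Kdrl averaged 843 ± 353 CPM in aqp8a.1-high wells, 755 ± 407 in wells that met both, 485 ± 67.8 in wells that met neither and 301 ± 34.4 in lyve1a-positive wells (SD, n = 3 plates). Flt4 averaged 452 ± 128 CPM in aqp8a.1-high wells, 470.2 ± 31.6 in wells that met both, 400.3 ± 143 in wells that met neither and 996 ± 305 in lyve1a-positive wells. Wells that met both were thus nearer to aqp8a.1-high wells than to lyve1a-positive wells in their means of kdrl and flt4. In plate 3 this class held 11 wells, with nrp1a, nrp1b and nrp2a at 0, which allows up to 260.2 CPM by the rule of 3 UMIs.

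Shares among the receptor UMIs need no scaling to other genes. Flt4 made up 46.1%, 29.3% and 32.4% of the kdrl plus flt4 UMIs of aqp8a.1-high wells, against 72.5%, 76.4% and 79.6% in lyve1a-positive wells. The exact binomial 95% intervals of the classes did not overlap in any plate, the nearest bounds being 55.6% and 65.4% in plate 1, and these intervals cover counting error only. Kdr made up 22.5%, 32.8% and 10.7% of the kdr plus kdrl UMIs of aqp8a.1-high wells, against 49.0%, 36.1% and 44.4% in lyve1a-positive wells. The kdr share was lower in aqp8a.1-high wells of each plate, while the level of kdr itself overlapped. Nrp2a and nrp2b together made up 63.0% ± 12.3 of neuropilin UMIs in aqp8a.1-high wells, against 88.2% ± 3.08 in lyve1a-positive wells (SD, n = 3 plates). An exact two-sided permutation test paired by plate gave p = 0.25 for each of these shares, the smallest p that 3 plates allow.

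**Figure D2:**
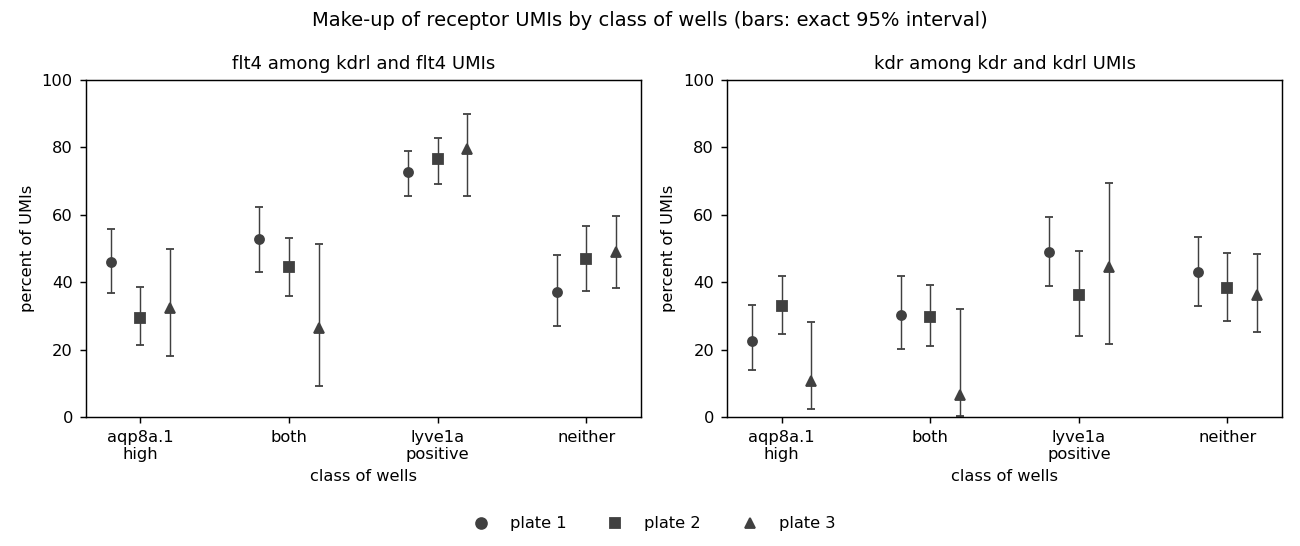
Share of flt4 among kdrl and flt4 UMIs (left) and of kdr among kdr and kdrl UMIs (right), in percent, by class of wells; symbols are plates and bars the exact 95% binomial interval. The flt4 share of lyve1a-positive wells lies between 72.5% and 79.6%, above the other 3 classes in every plate.

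Levels were also taken over steps of the 2 class genes, as a description with no test. Over wells with 0, 1 to 4, 5 to 9 and at least 10 aqp8a.1 UMIs, kdrl averaged 381 ± 30.6, 430 ± 133, 570 ± 416 and 924 ± 442 CPM (SD, n = 3 plates). Flt1 averaged 21.4 ± 19.3, 34.9 ± 13.7, 61.6 ± 24.7 and 204 ± 184 CPM over the same steps. The means of kdrl and flt1 increased at each step, with spreads at the upper steps that overlap, but not every plate did. Kdrl increased at each step in plates 2 and 3, whereas in plate 1 it fell over the first 3 steps, at 387, 314 and 158 CPM. Between the lowest 2 steps flt1 fell in plates 1 and 2 (37.4 to 33.5 and 26.7 to 21.9 CPM) and increased in plate 3 (0 to 49.3 CPM). Flt4 stood at 630 ± 138, 667 ± 128, 467 ± 5.78 and 480 ± 105 CPM. Over wells with 0, 1, 2 to 3 and at least 4 lyve1a UMIs, flt4 averaged 421 ± 107, 719 ± 357, 660 ± 89.9 and 991 ± 189 CPM. Nrp2a averaged 576 ± 431 CPM in wells with at least 4 lyve1a UMIs, against 184 ± 50.7 CPM in wells with none. The plates ranged widely at that upper step, from 273 to 1070.0 CPM. Flt1 averaged 2.87 ± 4.96 CPM in wells with at least 4 lyve1a UMIs, against 75.1 ± 19.2 CPM in wells with none. The lower mean rests on 1 UMI in plate 1, with 0 in plates 2 and 3. In plate 3 that step held 9 wells, where the 3 UMIs that a count of 0 allows equal more than 75.1 CPM.

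To compare detection at equal depth, each well was thinned to 300 UMIs, which kept 800 wells and left out 236. A kdrl UMI was then found in 26.2% ± 6.61 of aqp8a.1-high wells and 8.89% ± 4.22 of lyve1a-positive wells, against 51.3% ± 6.23 and 29.2% ± 6.04 before thinning (SD, n = 3 plates). Flt4 was found in 10.3% ± 1.36 of aqp8a.1-high wells and 24.8% ± 11.8 of lyve1a-positive wells, and flt1 in 6.71% ± 3.56 and 0.734% ± 0.653. Plates of the classes did not overlap for these 3 genes, and no share over all genes was taken at this depth. For flt1 this rests on 2, 6 and 2 aqp8a.1-high wells in plates 1, 2 and 3, against 1, 1 and 0 lyve1a-positive wells. Nrp2a was found in 2.70%, 3.95% and 4.76% of aqp8a.1-high wells of plates 1, 2 and 3, against 11.4%, 8.75% and 3.13% of lyve1a-positive wells. Its plates overlapped in this draw, and in plate 3, with 1 well in each class, the order was the opposite of that in plates 1 and 2. With another random draw the flt4 ranges met, at 5.26% to 14.3% in aqp8a.1-high wells and 13.3% to 28.1% in lyve1a-positive wells. In that draw the nrp2a ranges did not meet, at 0% to 4.05% and 6.25% to 8.57%. Nor did they when wells were thinned to 500 UMIs, at 4.23% to 5.80% and 17.9% to 22.2%.

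Sums of other marker lists moved with the same classes. Without the members and the class genes, 5 blood endothelial markers summed to 5628 to 6822 CPM in aqp8a.1-high wells and 3917 to 4444 CPM in lyve1a-positive wells. The 6 remaining lymphatic markers summed to 585 to 850.5 CPM in aqp8a.1-high wells and 1718 to 2070.0 CPM in lyve1a-positive wells, the 6 arterial markers to 800.5 to 1325 CPM and 377 to 677 CPM. The 4 venous markers left without flt4 summed to 97.5 to 334 CPM in aqp8a.1-high wells, with selp at 0, and 851 to 1182 CPM in lyve1a-positive wells. The 10 markers of endothelium in general summed to 3560 to 4487 CPM in aqp8a.1-high wells and 2618 to 3377 CPM in lyve1a-positive wells, also without overlap. The part of these lists in the members' differences was not tested. Markers of other cell types differed as well. The 8 skeletal muscle markers summed to 146 to 283 CPM in aqp8a.1-high wells (4 detected) and 743 to 1157 CPM in lyve1a-positive wells (6 detected), with acta1a and myhz2 at 0 in both. Of the 327 muscle UMIs of lyve1a-positive wells, 283 were of the myosin gene myhz1.3, a gene named after its values were seen. The 7 neutrophil markers summed to 309 to 633 CPM in aqp8a.1-high wells and 228 to 3512 CPM in lyve1a-positive wells, highest in plate 3. Of these UMIs, 72 of 95 in aqp8a.1-high wells and 113 of 229 in lyve1a-positive wells were of srgn. The 6 macrophage markers were nearly absent, at 0 to 9.67 CPM and 0 CPM, and csf1ra, marco and mpeg1.1 were at 0. Without wells that held at least 3 muscle UMIs, kdrl differed by 1.15 (adjusted p 0.0048) and flt4 by -0.83 (adjusted p 0.034) on the log2 scale. Nrp2a then differed by -1.09 with an adjusted p of 0.099 and did not pass. Without wells with at least 3 neutrophil UMIs, kdrl differed by 1.34 and flt4 by -1.06. Leaving out all wells with markers of another cell type kept 33, 33 and 12 aqp8a.1-high wells and 30, 29 and 26 lyve1a-positive wells. There flt4 differed by -2.68, 6.41-fold higher in lyve1a-positive wells (adjusted p 1.8e-05), and kdrl by 1.92 (adjusted p 0.0005). Class sums were then 8718 to 39638 UMIs, and only 331 genes met the filter, of which 46 were called. Flt4 met it through lyve1a-positive wells, where it is high, so the size of its difference carries that limit. Which side carried kdrl through the filter was not examined. Of the 504 analysed wells with markers of another cell type, 465 carried keratinocyte markers. These 504 wells had a median depth of 1351 UMIs, against 395 UMIs in the 532 wells without such markers. This setting thus also took out deeper wells, and the part of depth in its differences was not tested. The 7 measured keratinocyte markers overlapped, at 2973 to 4516 CPM and 3140.2 to 5741 CPM. The 6 measured erythrocyte markers, at 97.5 to 959 CPM in aqp8a.1-high wells and 0 to 183 CPM in lyve1a-positive wells, overlapped too, and their part was not tested. The genes with the largest differences among those called were the water channel gene aqp1a.1, si:dkey-208k22.3, the globin gene hbz, si:dkey-152p16.6 and epas1b on the aqp8a.1-high side. On the lyve1a-positive side they were loxl1, cxcl12a, hapln3, foxp4 and mrc1a. Several of these genes met the expression filter only through the side where they were high. Examples are loxl1, with 2 UMIs in aqp8a.1-high and 58 in lyve1a-positive wells, and hbz, with 56 and 13. For such genes a high level on that side was a condition of being ranked.

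Kdrl and flt4 were also counted jointly in single wells. Of 1036 wells, 211 held kdrl and no flt4, 183 held flt4 and no kdrl, 124 held both and 518 held neither. The 124 joint wells (45, 58 and 21 by plate) are 37.0% of the kdrl wells and 40.4% of the flt4 wells. They were deeper, with a median of 1881.5 UMIs, than kdrl-only wells at 1101 and flt4-only wells at 1244. After thinning to 300 UMIs, 14 wells held both, 124 held kdrl and 95 held flt4. Of the 124 joint wells, 52 were lyve1a-positive, 22 aqp8a.1-high, 29 met both conditions and 21 neither. Kdrl-only wells were aqp8a.1-high in 64 and lyve1a-positive in 20 of 211 cases, and flt4-only wells in 28 and 76 of 183.

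**Figure D3:**
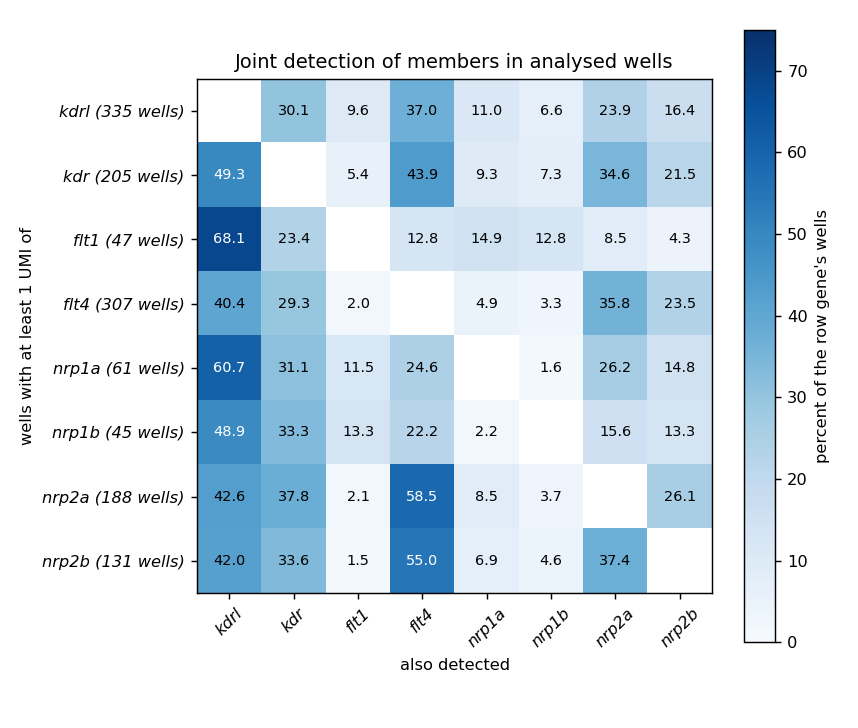
Percent of the wells with at least 1 UMI of the row gene that also held the column gene, over 1036 analysed wells with no thinning; the number of wells of each row gene is given beside its name. Flt1 wells held kdrl in 68.1% and flt4 in 12.8% of cases, and nrp2a wells held flt4 in 58.5%.

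Of the 47 flt1 wells, 32 (68.1%) also held kdrl, 11 (23.4%) kdr and 6 (12.8%) flt4. The 61 nrp1a wells held kdrl in 60.7% and flt4 in 24.6% of cases. The 188 nrp2a wells held flt4 in 58.5% and kdrl in 42.6%, and the 131 nrp2b wells held flt4 in 55.0% and kdrl in 42.0%. Without thinning, flt1 and nrp1a wells thus held kdrl more often than flt4, and wells of both nrp2 genes held flt4 more often than kdrl. After thinning to 300 UMIs, nrp1a shared 3 wells with kdrl and 3 with flt4, and flt1 shared 6 and 2. The pair nrp1a and nrp1b was found together in 1 well, while nrp2a and nrp2b shared 49 wells. Kdr lay between, with 101 kdr wells that held kdrl and 90 that held flt4. By receptors alone, 446 wells held none, 344 held 1, 190 held 2, 54 held 3 and 2 held all 4, with median depths of 373, 940.5, 1593.5, 2834.5 and 3648 UMIs. The number of receptors found thus grew with depth. The most frequent sets were kdrl alone and flt4 alone with 136 wells each, before kdrl with flt4 in 77 and kdr alone in 60.

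Levels per UMI are less tied to depth than detection. Flt1 stood at 3.53, 23.7 and 0 CPM in wells with flt4, against 94.2, 105 and 123 CPM in wells without it. In wells with kdrl it stood at 55.1, 92.5 and 187 CPM, against 41.8, 27.0 and 11.0 CPM in wells without. Flt4 stood at 680.2, 874 and 1364 CPM in wells with nrp2a, against 362, 416 and 599 CPM in wells without. Flt1 was thus lower in flt4 wells and higher in kdrl wells of each plate, and flt4 was higher in nrp2a wells of each plate. Flt4 was also higher in wells with nrp2b, at 813 ± 165 CPM against 525 ± 104 CPM in wells without (SD, n = 3 plates). A level lower in all 3 plates was found for 19.1% of 2839 genes in flt4 wells, one higher in all 3 plates for 17.4% in kdrl wells and 16.6% in nrp2a wells. No such share over all genes was taken for nrp2b or kdr wells. The level of kdr showed no shared direction with flt4, at 258 ± 45.1 CPM in flt4 wells and 261 ± 50.9 CPM in wells without. Taken the other way, flt4 was higher in kdr wells of each plate, at 638, 588 and 975 CPM against 419, 550 and 622 CPM in wells without. Other pairs of members also kept a direction over the plates. Kdr was higher in kdrl wells of each plate, at 250, 293 and 375 CPM against 219, 243 and 198 CPM in wells without. The level of kdrl in kdr wells kept no direction. Kdrl stood at 261, 356 and 656 CPM in flt4 wells, against 533, 722 and 659 CPM in wells without, so plate 3 was nearly level.

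Wells at the same position of different plates carry the same barcode. Kdrl was found in 30.0% of wells whose counterpart on another plate held it and in 32.7% of those whose counterpart did not, flt1 in 4.71% and 4.62%, and nrp2b in 12.2% and 12.5%. For nrp1b the shares were 16.2% and 3.51%, for nrp1a 11.5% and 5.30%, for nrp2a 22.4% and 16.5%, for kdr 22.5% and 18.5%, and for flt4 33.4% and 28.5%. For these 5 genes the share was higher where the counterpart held the gene. Each pair of wells was counted from both sides, and the nrp1b share rests on 12 such counts. No spread or share over all genes was taken, so whether position matters was not tested, nor was any part of it in joint detection. No doublet caller was run, and whether any joint well held 2 cells was not tested.

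The comparison of kdrl-only with flt4-only wells leaves kdrl and flt4 as a description and tests the other 6 members. Nrp2a was 2.27-fold lower in kdrl-only wells than in flt4-only wells, and flt1 had 46 UMIs in kdrl-only wells against 4 in flt4-only wells. Of 1558 genes, the same edgeR test called 13.5% (8.99% higher and 4.49% lower in kdrl-only wells). It covered 4 members, of which nrp2a passed and kdr and nrp2b did not, while flt1 met the expression filter only through kdrl-only wells. Plates did not overlap for 3 of the 6 members, against 20.9% of 3331 genes with at least 20 UMIs.

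**Figure D4:**
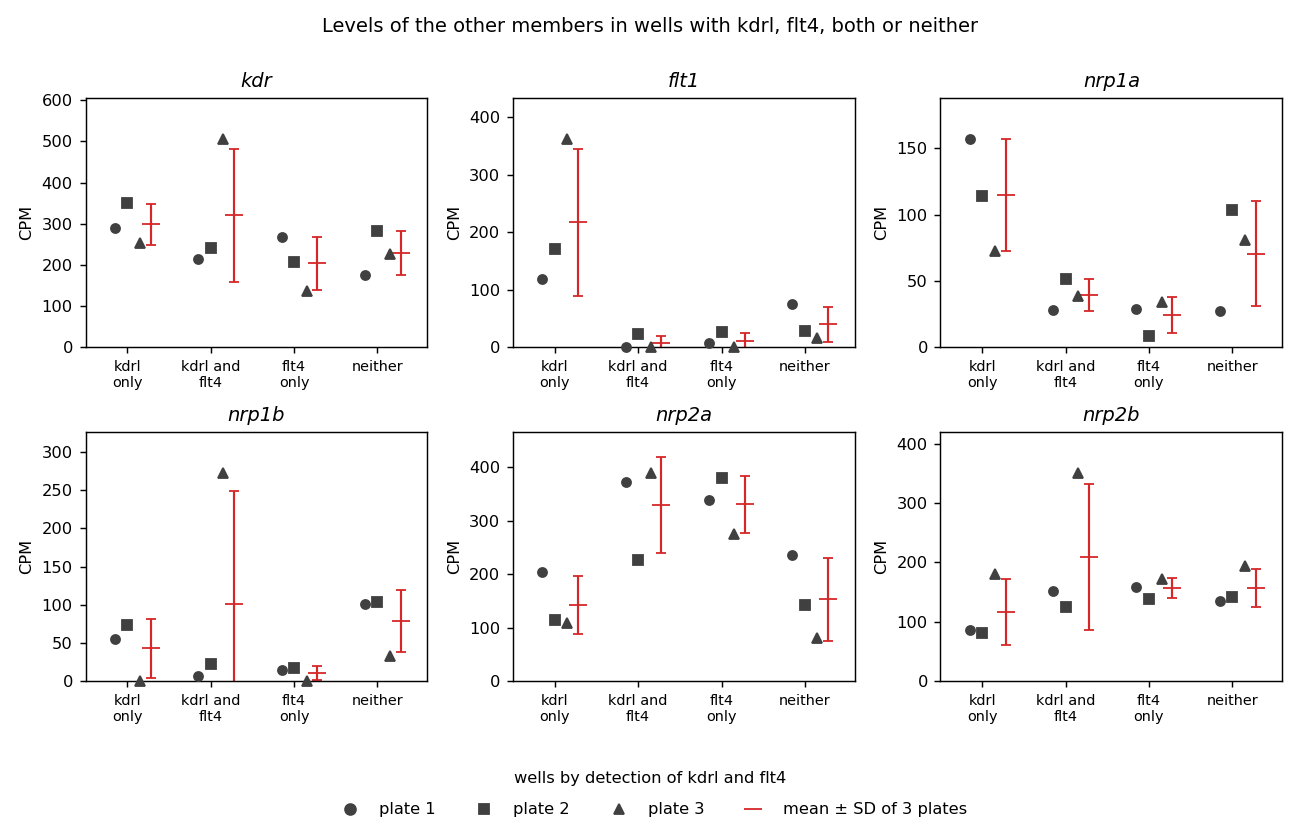
Level in CPM (vertical axis, linear, from 0, scaled per gene) of the 6 members that did not define the classes, in wells with kdrl only, with kdrl and flt4, with flt4 only and with neither; symbols are plates and red bars the mean ± SD. Flt1 lies at 118 to 362 CPM in kdrl-only wells and at 0 to 25.9 CPM in flt4-only wells.

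Flt1 was counted at 118, 171 and 362 CPM in kdrl-only wells, against 7.21, 25.9 and 0 CPM in flt4-only wells. The classes did not overlap. The fitted log2 difference was 3.46 ± 0.64 (SE), but a high level in kdrl-only wells was a condition of being tested. With no expression filter, 1.33% of 13764 genes were called, and flt1 differed by 3.40 (adjusted p 3.9e-05). Wells with both kdrl and flt4 had 3 flt1 UMIs, at 7.31 ± 12.7 CPM, near flt4-only wells at 11.0 ± 13.4 CPM and below kdrl-only wells at 217 ± 128 CPM (SD, n = 3 plates). Flt1 was thus low in listed wells with flt4, with or without kdrl. With the unlisted wells of plate 3 added, 9 wells held both flt1 and flt4, 3 of them in plate 3. Among listed wells these counts were 6 and 0.

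Nrp2a stood at 204, 114 and 109 CPM in kdrl-only wells, against 339, 379 and 274 CPM in flt4-only wells. The classes did not overlap, and the log2 difference was -1.18 ± 0.35 (SE), with an adjusted p of 0.025. It did not pass without plate 1 (-1.57, adjusted p 0.051) or without plate 2 (-0.85, adjusted p 0.470). In wells with both receptors nrp2a averaged 329 ± 89.5 CPM, beside 331 ± 52.9 CPM in flt4-only wells. Nrp1a stood at 157, 114 and 72.4 CPM in kdrl-only wells, against 28.8, 8.62 and 34.3 CPM in flt4-only wells. It did not overlap, but its 36 and 6 UMIs did not meet the filter. With no expression filter its log2 difference was 2.50 (adjusted p 0.013).

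Kdr was counted at 290.4, 351 and 253 CPM in kdrl-only wells and at 267, 207 and 137 CPM in flt4-only wells. Each plate had the higher value in kdrl-only wells, but the ranges overlapped, and the log2 difference of 0.50 ± 0.33 (SE) had an adjusted p of 0.370. Nrp2b stood at 86.3, 81.5 and 181 CPM in kdrl-only wells and at 159, 138 and 172 CPM in flt4-only wells, and its log2 difference of -0.64 ± 0.40 (SE) had an adjusted p of 0.337. Nrp1b had 16 and 4 UMIs, with 0 in plate 3 of both classes, and did not meet the filter. With no expression filter its log2 difference of 1.86 did not pass (adjusted p 0.733).

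**Figure D5:**
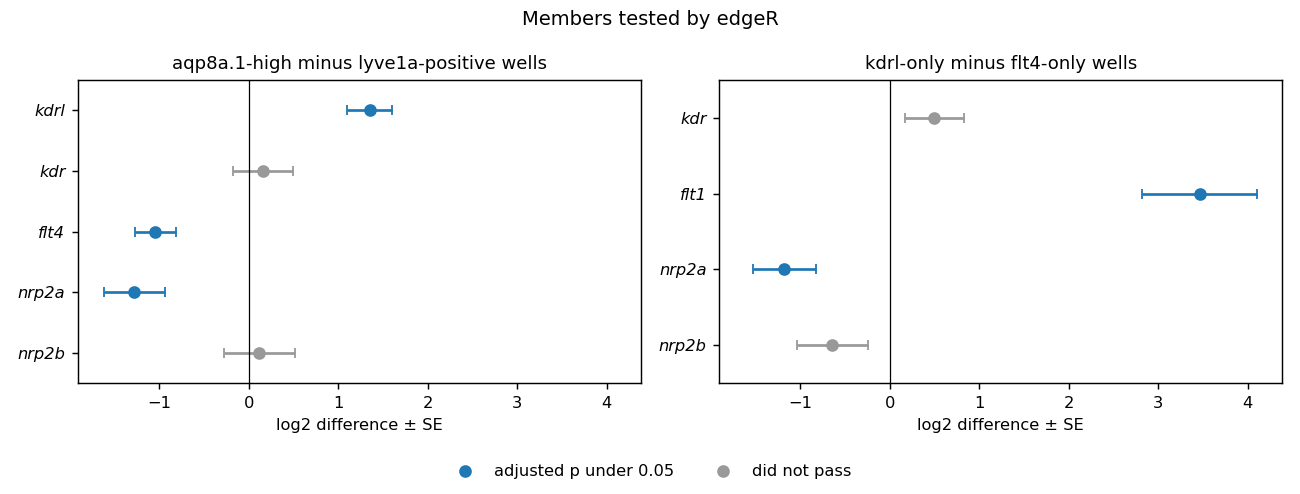
Log2 differences (points) with their SE (bars) of the members that met the expression filter, for aqp8a.1-high minus lyve1a-positive wells (left) and kdrl-only minus flt4-only wells (right); blue points passed at an adjusted p under 0.05 and grey points did not, and flt1 met the filter only through kdrl-only wells. Nrp2a lies below 0 in both panels, at -1.28 and -1.18, and kdr and nrp2b did not pass in either. On the left nrp2a met the filter only through lyve1a-positive wells, and on the right nrp2b only through flt4-only wells.

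The class genes themselves, which did not define these wells, averaged 9292 ± 719 CPM for aqp8a.1 in kdrl-only wells against 3313 ± 681 CPM in flt4-only wells, and 430.2 ± 129 against 1411 ± 220.0 CPM for lyve1a. The 10 markers of endothelium in general summed to 4520 to 4777 CPM in kdrl-only wells and 2372 to 3191 CPM in flt4-only wells. Sums of blood and arterial markers were also higher in kdrl-only wells without overlap, and those of lymphatic markers lower. The 4 venous markers without flt4 summed to 277 to 579 CPM in kdrl-only wells and 655 to 1029 CPM in flt4-only wells. Muscle markers summed to 204 to 543 CPM in kdrl-only wells and 576 to 940.1 CPM in flt4-only wells. The 5 measured pericyte and smooth muscle markers summed to 97.9 to 253 CPM in kdrl-only wells and 25.9 to 68.6 CPM in flt4-only wells, with acta2 and tagln at 0 in both. Of these UMIs, 35 of 47 in kdrl-only wells and 4 of 12 in flt4-only wells were of rgs5a. Notch3 went the other way, with 0 and 3 UMIs. The fitted log2 difference of flt1 was 3.25 without wells that held at least 3 pericyte and smooth muscle UMIs, and 3.17 without such muscle wells. In these fits too, flt1 met the filter only through kdrl-only wells, so a large positive value was a condition of being tested. Its place in the ranking below carries the same limit, which holds for other ranked genes too. Examples are mcf2l2, with 66 UMIs in kdrl-only and 6 in flt4-only wells, and gcnt4a, with 7 and 42. The genes with the largest differences were si:dkey-208k22.3 (plvapa, a vessel wall permeability gene), flt1, mcf2l2, lpl and the endothelial cadherin gene cdh5 on the kdrl-only side. On the flt4-only side they included mrc1a, a scavenger receptor gene of lymphatic endothelium, gcnt4a, hapln3 and si:ch211-152c2.3.

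Genes with known ties to the receptors were examined by list. Of 22 genes that VEGF is known to induce, 14 were tested between aqp8a.1-high and lyve1a-positive wells, of which 6 were higher in aqp8a.1-high wells and none lower, beside 5.58% higher and 3.79% lower among all genes tested. Their median log2 difference was 0.64, against -0.0013 over all genes tested. Esm1, an endothelial proteoglycan gene of sprouting vessels, averaged 384 ± 73.1 CPM in aqp8a.1-high wells and 81.1 ± 35.9 CPM in lyve1a-positive wells (log2 difference 2.25, adjusted p 7.8e-08). Dll4, a Notch ligand gene, averaged 378 ± 91.2 and 236 ± 68.5 CPM (0.98, adjusted p 0.019), and the apelin receptor gene aplnra 154 ± 39.6 and 57.6 ± 69.7 CPM (2.19, adjusted p 0.0024). The chemokine receptor gene cxcr4a, the transcription factor gene mef2aa and the cell cycle regulator gene rgcc also passed, with log2 differences of 1.08, 1.22 and 0.81. The fast-responding genes egr1, nr4a1, dusp5 and dusp6 did not pass, with log2 differences of -0.13, -0.54, -0.16 and -0.46. Between kdrl-only and flt4-only wells 14 were tested and 5 were higher in kdrl-only wells, none lower, beside 8.99% higher and 4.49% lower among all genes tested. Their median was 0.67, against -0.01 over all genes. These were dll4, esm1, cxcr4a, rgcc and the homeobox gene hlx1, with log2 differences of 1.29, 1.59, 2.05, 1.13 and 1.34. Esm1, dll4 and cxcr4a also stand on the blood or arterial marker lists. Esm1, aplnra and rcan1a met the expression filter only through aqp8a.1-high wells. In the other comparison esm1, cxcr4a, aplnrb and rcan1a met it only through kdrl-only wells, and angpt2a only through flt4-only wells. For these genes a high level on that side was a condition of being tested, so the counts and medians of this list carry that limit.

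Of 37 genes of VEGF receptor signalling, 7 were tested between aqp8a.1-high and lyve1a-positive wells and 1 passed, beside 9.37% of all genes tested. This was ptprb, the gene of a phosphatase that acts on endothelial receptor kinases, at 343 ± 80.3 CPM in aqp8a.1-high wells and 155 ± 36.4 CPM in lyve1a-positive wells (log2 difference 1.26, adjusted p 0.0029). Between kdrl-only and flt4-only wells 9 were tested, beside a background of 13.5% called, and ptprb alone passed, at 521 ± 16.0 against 162 ± 37.8 CPM (1.72, adjusted p 0.0003). Plcg1, whose product carries the Kdrl signal, did not pass in either comparison, with log2 differences of 0.52 and 0.44. Nor did DAB2, whose mouse counterpart takes part in VEGF receptor uptake, with -0.15 and -0.09. The median log2 differences of the tested genes of this list were 0.18 and 0.19.

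Ligands were scarce in these endothelial wells. The 11 planned VEGF ligand and ligand-processing names matched 8 different rows, vegfd and figf being the same one, of which 6 had a UMI and none met the filter. Vegfc, the Flt4 ligand gene, had 54 UMIs in 48 wells, at 39.3, 41.5 and 83.1 CPM in plates 1, 2 and 3. Pgfb, the gene of a placental growth factor that binds Flt1 in mammals, had 33 UMIs in 24 wells, and vegfab had 14 UMIs in 13 wells. Vegfc had 11 UMIs in aqp8a.1-high wells and 9 in lyve1a-positive wells, too few for a direction. None of 12 class 3 semaphorin genes or 10 plexin genes with a row was tested between aqp8a.1-high and lyve1a-positive wells. Of the semaphorin genes, sema3ab and sema3fb were tested between kdrl-only and flt4-only wells and did not pass, with log2 differences of 0.31 and -0.02.

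The genes whose well-by-well levels were most like those of a member were ranked by Pearson's r over 1036 wells and 622 genes with at least 200 UMIs. Wells share plates and depth, and all values are low. For kdrl they were ppap2b at 0.26, si:dkey-208k22.3 (plvapa) and cdh5 at 0.24, and epas1b and pecam1 at 0.22. For flt4 they were ctsla at 0.26, cdh6 at 0.24, the chemokine gene cxcl12a at 0.21, cd63 at 0.21 and tnfaip2b at 0.19. The genes for nrp2a were cd63, cxcl12a, ctsla, cdh6 and flt4 itself, at 0.17 to 0.19, so 4 of the 5 genes most like flt4 were also among the 5 most like nrp2a. For kdr they were map4k2, CABZ01030107.1, ebf3a, eif3m and malat1, at 0.14 to 0.17. Plates differed here, with map4k2 at 0.07, 0.07 and 0.38 in plates 1, 2 and 3 and eif3m at -0.01, 0.14 and 0.28. Malat1 went the other way, at 0.21, 0.15 and 0.07. Between members r lay between -0.07 (flt4 and nrp1b) and 0.17 (flt4 and nrp2a), and kdrl with flt4 gave -0.03.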

How the data were processed

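The authors deposited, for each plate, UMI counts per gene and well without normalization, and tables that pair wells with barcodes and list the wells analysed. The submitters' processing notes name Bowtie2, without a version, and the build GRCz10. How genes were annotated, UMIs collapsed and reads filtered was not given in the sources used here. The 92 spike-in rows held 0 UMIs. Plates held 559559, 481392 and 221176 UMIs, and those of plate 3 include 116 wells off the authors' list. Depth sets the precision: 3 UMIs, the most that a count of 0 allows, equal 16.2 to 29.0 CPM in the 2 main classes of plates 1 and 2 and 101 to 146 CPM in plate 3.

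UMIs of listed wells were summed for each class of a plate. The sums were tested with the quasi-likelihood F-test of edgeR 4.0.16 in R 4.3.3, after filterByExpr and TMM scaling, with plate as a block and Benjamini-Hochberg adjustment (threshold 0.05). The block follows from the classes being parts of the same plate. Rows of class-defining genes were removed before each fit, and SEs are the log2 difference divided by the square root of F. The scripts were tested on simulated data. Wells were thinned without replacement (seed 1), and exact binomial intervals and floors cover counting error only. Alternatives were DESeq2 1.42.0, other scaling, no filter, no block, each plate left out, other class limits and wells left out by depth or by markers of another cell type. Wells rich in muscle, neutrophil or pericyte markers were left out as alternatives chosen after seeing the data.

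The members, the gene lists and the class limits were chosen with earlier results of these data known. Genes named are the members, the class genes, list members that passed, VEGF ligands with at least 10 UMIs, the 5 genes most like each member with at least 200 UMIs, and the 5 with the largest differences on each side, except 1 clone-named gene left out of print. Unpassed list genes, single markers and myhz1.3 were named after their values were seen. Plvapa was read from the row si:dkey-208k22.3 by a synonym in a table of another assembly. Sequences and coordinates are not used here.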

Additional observations from a re-analysis of the deposited data

Results flagged for a closer look

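All 8 genes had UMIs in data outside the comparisons, the 116 wells of plate 3 that the authors' list leaves out. These wells had a median depth of 296.5 UMIs and 76768 UMIs in all, so 3 UMIs, the most that a count of 0 allows, equal 39.1 CPM. Kdrl had 45 UMIs there, at 586 CPM against 658 CPM in the listed wells of plate 3, and flt4 had 40 UMIs, at 521 against 692 CPM. Kdr had 25 UMIs (326 against 263 CPM), nrp2a 13 (169 against 180.0 CPM) and flt1 11 (143 against 76.2 CPM). Nrp2b had 9 UMIs (117 against 215 CPM), nrp1b 8 (104 against 62.3 CPM) and nrp1a 6 (78.2 against 62.3 CPM). The 8 genes were thus present in the unlisted wells at levels of the same order as in the listed wells, and no test was made between them.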

How the results depend on the processing

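Of the 141 genes called between aqp8a.1-high and lyve1a-positive wells, DESeq2 called 42 (19 higher and 23 lower, against 84 and 57), no expression filter gave 81, and leaving out a plate gave 44 to 118. The count was 82 and 67 with aqp8a.1 limits of 3 and 10 UMIs, 26 with lyve1a-positive wells that held no aqp8a.1, 46 without wells with markers of another cell type and 56 without muscle-rich wells. Between kdrl-only and flt4-only wells 210 became 76 with DESeq2, 63 to 301 without a plate and 41 without wells with markers of another cell type. Some of these settings test fewer genes. Without the replicate block the counts were 109 and 193, and no member lost or gained a call. Kdrl was called in 18 of 18 alternatives and flt4 in 17 of 18. Leaving out a plate gave -1.37 to -0.81 for flt4, -1.79 to -1.14 for nrp2a and -0.76 to 0.74 for kdr between aqp8a.1-high and lyve1a-positive wells. Nrp2a was lost there with DESeq2 (-1.48, adjusted p 0.158), with an aqp8a.1 limit of 10 UMIs (-1.18, adjusted p 0.070) and without muscle-rich wells (-1.09). Nrp2b changed sign without a plate (-0.37 to 0.85), with a limit of 3 UMIs (-0.052), with wells that meet both kept as aqp8a.1-high (-0.022) and without muscle-rich wells (-0.22). Between kdrl-only and flt4-only wells nrp2a was lost with DESeq2 (-1.22, adjusted p 0.223), without plate 1 or plate 2 (-1.57 and -0.85, against -1.17 without plate 3, adjusted p 0.011) and in wells of at least 500 UMIs (-1.09, adjusted p 0.053). The cause of these changes was not tested. At this depth flt1, nrp1a and nrp1b fall near the limit that a count of 0 allows, above all in plate 3.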

Other observations

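For wells that carried markers of another cell type, levels pooled over plates are given with no test, some from few wells. The 65 wells with at least 3 UMIs of muscle markers had flt4 at 932 CPM, in 73.8% of wells, nrp2a at 373 CPM, kdrl at 210.4 CPM and no flt1 UMI. The 12 wells with at least 3 erythrocyte marker UMIs had kdrl at 1160.0 CPM and flt1 at 232 CPM. Of the 6 wells rich in pericyte and smooth muscle markers, none held flt4 or kdr, and 7 flt1 UMIs came from 33.3% of them. The 465 wells with at least 3 keratinocyte marker UMIs had kdrl at 452 CPM and flt4 at 584 CPM. The 2 wells rich in macrophage markers held 1 flt4 UMI, in 1 of them, and no UMI of the other 7 genes.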
